A study of Mus musculus with 8 samples.

Results

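The globins of the mouse embryo were followed across 4 groups of cells sorted from E10.5 mouse embryos, which are at midgestation. The members were the 6 gene names Hbb-bh1, Hbb-y, Hba-x, Hba-a1, Hbb-b1 and Hbb-b2, taken by the gene name printed in the scanner files, out of 31823 distinct gene names there. They had 7 probes of 39419 non-control probes on the array, since Hbb-y had 2, and every probe is shown apart. All 7 probes were well above background on all 8 arrays, so no member was lost to the filter on dim probes, which left 24359 probes for testing. A further 10 probes of the globin family are given beside them where a result turns on them.

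Cells came from Tg(Ly6a-GFP) conceptuses, fathered by Tg(Ly6a-GFP) males and carried by C57BL/6 x 129S1/SVImJ F1 females. From 100 such embryos, the vitelline and umbilical arteries were pooled with the aorta-gonad-mesonephros (AGM), the tissue around the dorsal aorta. The reporter puts green fluorescent protein (GFP) under the control of the Ly6a gene, which encodes the stem cell antigen Sca-1. The groups were 30000 GFP+ cluster cells, 130000 GFP- cluster cells, 70000 GFP+ endothelial cells and 300000 GFP- endothelial cells. All 4 groups were CD31+ VEC+ ESAM+, with Kit on cluster cells and no Kit on endothelial cells. Before amplification, each group's RNA was divided into 2 fractions per the protocols in the labels, and each fraction was put on 1 array with the dye Cy3. The p-values below therefore measure the spread between 2 arrays of 1 pool of embryos and not the spread between embryos. Replicate 1 of every group lay on one slide and replicate 2 on another.

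Hemoglobin is a tetramer of alpha-type and beta-type globin chains, each holding a heme that binds oxygen. The mouse alpha-type locus on chromosome 11 holds the embryonic gene Hba-x (zeta globin) followed by the adult genes Hba-a1 and Hba-a2. The beta-type locus on chromosome 7 holds the embryonic genes Hbb-y (epsilon-y globin) and Hbb-bh1 (beta-H1 globin) followed by the adult genes. The adult beta genes are called Hbb-bs and Hbb-bt in strains with the single haplotype, and Hbb-b1 and Hbb-b2 in strains with the diffuse haplotype. At midgestation the circulating blood of the mouse is dominated by primitive erythroblasts born in the yolk sac, which carry the embryonic chains together with adult alpha chains, while definitive red cells carry mainly the adult chains.

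The probes decide which RNA each value stands for, so the 4 probes below are printed, each a 60-base sequence from the scanner files in the sense of its gene. They lie, in mm9, at chr7:111000448-111000507 on the minus strand (Hbb-y probe 1), chr11:32177668-32177727 on the plus strand (Hba-x), chr11:32183955-32184014 on the plus strand (Hba-a1) and chr7:110962047-110962106 on the minus strand (Hbb-b2). Capitals mark the best ungapped alignment between the Hba-a1 and Hbb-b2 probes, which covers the codons around the distal histidine, the residue that faces the oxygen bound to heme.
Hbb-y probe 1: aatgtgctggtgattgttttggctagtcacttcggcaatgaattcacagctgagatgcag
Hba-x: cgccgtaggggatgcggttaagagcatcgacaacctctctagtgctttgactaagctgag
Hba-a1: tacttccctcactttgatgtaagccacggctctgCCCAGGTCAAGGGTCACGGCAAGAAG
Hbb-b2: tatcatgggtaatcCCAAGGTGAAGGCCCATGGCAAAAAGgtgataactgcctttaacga
The aligned stretch is 26 bases long, of which 20 are identical, and it spans bases 35 to 60 of the Hba-a1 probe and bases 15 to 40 of the Hbb-b2 probe. The 2 probes of the embryonic genes are shown without an alignment.

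The remaining members' probes lay at chr7:110990209-110990268 (Hbb-bh1), chr7:110961105-110961164 (Hbb-b1) and chr7:111000268-111000327 (Hbb-y probe 2) of mm9, all on the minus strand. Hbb-y probe 1 starts at base 379 of the listed transcript and probe 2 at base 559, and probe 2 holds the hexamer AATAAA of a polyadenylation signal. The accession of the Hbb-b1 probe now belongs to the gene Hbb-bt. The Hbb-b1 and Hbb-b2 probes lie 882 bases apart on the minus strand of mm9, with Hbb-b1 starting at base 503 of its listed transcript and Hbb-b2 at base 195 of its own. They are therefore not shown to read different genes, and may read RNA of either adult beta gene in embryos of this cross, whichever haplotype names apply. The scanner files list accessions of both Hba-a1 and Hba-a2 for the Hba-a1 probe and for the Hba-a2 probe, so the RNAs of these near-identical genes cannot be told apart by either.

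Promoters were available from RefSeq (GRCm38.p6) for Hbb-y, Hba-x, Hba-a1 and Hbb-bt, and not under the names Hbb-bh1, Hbb-b1 or Hbb-b2. The 150 bases before each start are printed, and their part in the globin differences was not tested. They lie at chr7:103853208-103853357 on the minus strand, chr11:32276450-32276599 on the plus strand, chr11:32283522-32283671 on the plus strand and chr7:103813924-103814073 on the minus strand. Capitals mark matches on either strand to CACCC, the core of the site bound by the erythroid factor KLF1 and its relatives, to CCAAT, to TATAA and to GATAA, a form of the GATA factor site.
Hbb-y promoter: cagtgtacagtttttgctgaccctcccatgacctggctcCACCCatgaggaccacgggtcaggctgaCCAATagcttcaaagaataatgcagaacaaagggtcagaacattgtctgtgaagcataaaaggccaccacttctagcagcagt
Hba-x promoter: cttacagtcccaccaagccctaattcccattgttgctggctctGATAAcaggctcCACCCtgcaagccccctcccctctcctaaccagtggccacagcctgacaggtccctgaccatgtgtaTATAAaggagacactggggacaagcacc
Hba-a1 promoter: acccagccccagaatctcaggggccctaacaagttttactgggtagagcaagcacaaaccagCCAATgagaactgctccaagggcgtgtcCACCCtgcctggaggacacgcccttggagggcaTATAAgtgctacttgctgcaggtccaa
Hbb-bt promoter: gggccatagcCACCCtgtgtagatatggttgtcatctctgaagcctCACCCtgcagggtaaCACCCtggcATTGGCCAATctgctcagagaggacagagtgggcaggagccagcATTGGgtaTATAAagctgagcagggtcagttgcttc
CACCC was present in all 4 stretches, with 3 copies in Hbb-bt, against 37.4% of 32851 promoter stretches of the same length. CCAAT was present in Hbb-y, Hba-a1 and Hbb-bt, against 24.5% of all stretches, and Hbb-bt also holds 2 copies on the reverse strand (ATTGG), one of them adjoining the forward copy. TATAA was present in Hba-x, Hba-a1 and Hbb-bt, against 14.2% of all stretches, and GATAA was present in Hba-x, against 13.3%. CACCC occurred together with both CCAAT and TATAA in Hba-a1 and Hbb-bt, and in 1.1% of all stretches. These matches describe letters and not bound sites. The Hba-a1 and Hba-a2 promoter windows of 300 bases share an identical run of 297 bases.

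Levels below are log2 signals relative to the 75th percentile of the same array, so a difference of 1 is a factor of 2. Each probe binds with its own strength, so the levels of different probes are not comparable, and each probe is compared between groups. Ly6a itself lay at -0.48 and -0.57 in GFP+ cluster cells, against -3.95 and -3.87 in GFP- cluster cells. In GFP+ endothelial cells it lay at 0.37 and 0.42, against -3.40 and -3.95 in GFP- endothelial cells. Kit lay at 2.87 and 2.88 in GFP+ cluster cells and at 1.94 and 2.02 in GFP- cluster cells. The Kit- gates held Kit at 1.29 and 1.36 (GFP+ endothelial cells) and at 1.33 and 1.35 (GFP- endothelial cells), so Kit RNA was above background there too. The endothelial genes Cdh5, Pecam1, Kdr, Tek, Esam and Emcn were well above background on all 8 arrays. The arrays' 75th percentiles ranged from 708.3 to 1477 units, and from 55.43% to 64.52% of their 43020 non-control spots were well above background.

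The 3 embryonic globins were lower in GFP+ than in GFP- cells of both classes. Hbb-y, the epsilon-y chain, was read by probe 1 at 6.21 and 6.24 in GFP+ cluster cells, against 8.98 and 8.87 in GFP- cluster cells. In GFP+ endothelial cells probe 1 read 6.29 and 6.40, against 8.42 and 8.51 in GFP- endothelial cells. All 4 GFP- arrays were above all 4 GFP+ arrays, and on both GFP- cluster arrays this probe was the brightest of the array. The log2 difference between GFP+ and GFP- cells was -2.70 ± 0.07 (SE) in cluster cells, a level 6.51-fold lower (adjusted p = 1.93e-05, limma with Benjamini-Hochberg adjustment over all tested probes). In endothelial cells it was -2.12 ± 0.07, a level 4.34-fold lower (adjusted p = 6.04e-05, limma).

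Probe 2 of Hbb-y was also lower in GFP+ cells of both classes, with smaller steps. It read 6.75 and 6.72 in GFP+ cluster cells, against 7.95 and 8.02 in GFP- cluster cells. It read 6.60 and 6.75 in GFP+ endothelial cells, against 7.86 and 7.96 in GFP- endothelial cells. The GFP- arrays were again all above the GFP+ arrays, while the 2 classes overlapped within GFP- cells and within GFP+ cells. The differences were -1.25 ± 0.07 in cluster cells (adjusted p = 0.000179, limma) and -1.24 ± 0.07 in endothelial cells (adjusted p = 0.000261, limma), which are 2.39-fold and 2.36-fold lower levels.

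Hbb-bh1, the beta-H1 chain and the earliest beta-type globin of primitive erythroblasts, had levels of 5.50 and 5.44 in GFP+ cluster cells, against 8.14 and 8.23 in GFP- cluster cells. Its levels were 5.52 and 5.54 in GFP+ endothelial cells, against 7.82 and 7.83 in GFP- endothelial cells. Both GFP+ groups lay together and well under both GFP- groups. The difference was -2.71 ± 0.05 in cluster cells (6.56-fold lower, adjusted p = 9.69e-06, limma) and -2.30 ± 0.05 in endothelial cells (4.91-fold lower, adjusted p = 3.44e-05, limma).

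Hba-x, the zeta chain that pairs with the embryonic beta-type chains, had levels of 3.31 and 3.36 in GFP+ cluster cells, against 6.88 and 6.93 in GFP- cluster cells. The levels were 3.63 and 3.67 in GFP+ endothelial cells, against 5.92 and 5.83 in GFP- endothelial cells. Here no 2 groups overlapped. The difference was -3.57 ± 0.05 in cluster cells (11.9-fold lower, adjusted p = 5.95e-06, limma) and -2.22 ± 0.05 in endothelial cells (4.67-fold lower, adjusted p = 3.44e-05, limma).

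The adult-type globins were lower in GFP+ cells as well. Hba-a1, the adult alpha chain, had levels of 3.78 and 3.85 in GFP+ cluster cells, against 7.39 and 7.40 in GFP- cluster cells. In GFP+ endothelial cells the levels were 4.25 and 4.34, against 6.42 and 6.49 in GFP- endothelial cells. The 4 groups did not overlap, and GFP+ cluster cells were the lowest. The difference was -3.58 ± 0.05 in cluster cells (11.98-fold lower, adjusted p = 5.95e-06, limma) and -2.16 ± 0.05 in endothelial cells (4.47-fold lower, adjusted p = 3.53e-05, limma).

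The probe named Hbb-b1, for an adult beta chain, had levels of 1.75 and 1.71 in GFP+ cluster cells, against 5.12 and 5.09 in GFP- cluster cells. Its levels were 1.78 and 1.73 in GFP+ endothelial cells, against 4.29 and 4.27 in GFP- endothelial cells. The 2 GFP+ groups overlapped, and both lay below both GFP- groups. The difference was -3.37 ± 0.04 in cluster cells (10.4-fold lower, adjusted p = 5.95e-06, limma) and -2.52 ± 0.04 in endothelial cells (5.74-fold lower, adjusted p = 3.44e-05, limma).

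The probe named Hbb-b2, also for an adult beta chain and from the same stretch of the locus, had levels of -1.13 and -1.20 in GFP+ cluster cells, against 2.46 and 2.40 in GFP- cluster cells. Its levels were -0.41 and -0.46 in GFP+ endothelial cells, against 1.67 and 1.69 in GFP- endothelial cells. All 4 groups were apart. The difference was -3.59 ± 0.05 in cluster cells (12.1-fold lower, adjusted p = 5.95e-06, limma) and -2.11 ± 0.05 in endothelial cells (4.32-fold lower, adjusted p = 3.44e-05, limma).

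**Figure D1:**
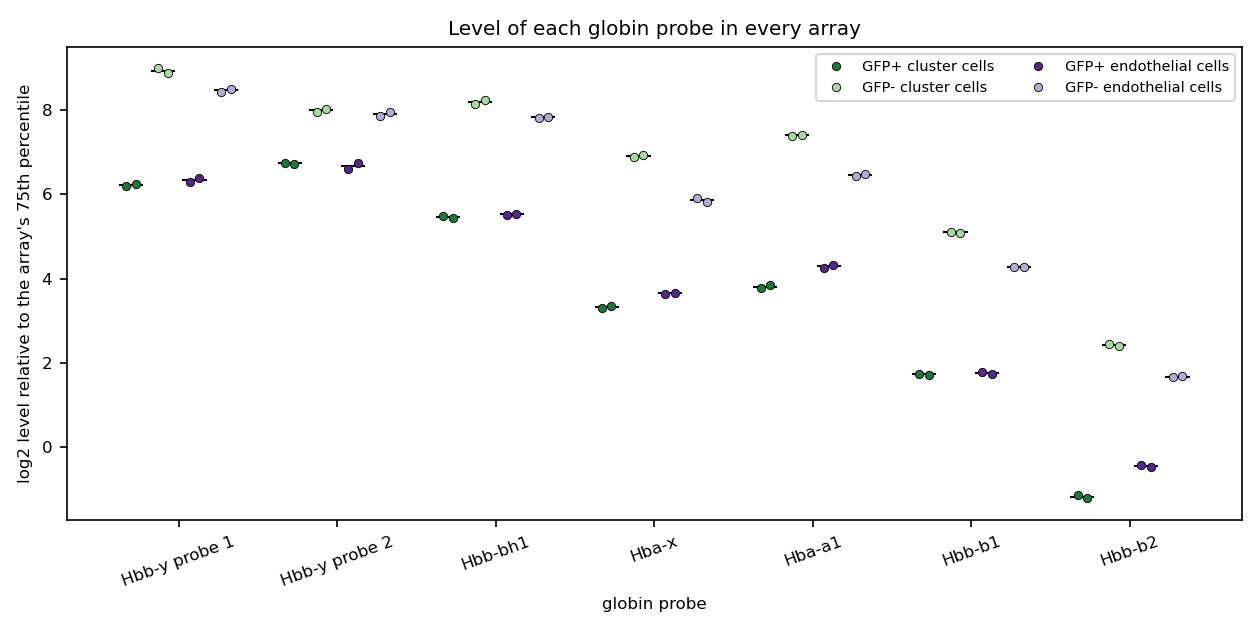
Log2 level relative to the array's 75th percentile (vertical axis) for the 7 globin probes (horizontal axis) in the 4 groups, with 1 point per array and a line at the mean of the 2 arrays. For every probe both GFP- groups lie above both GFP+ groups, for example Hba-a1 with 3.78 and 3.85 in GFP+ cluster cells against 7.39 and 7.40 in GFP- cluster cells, and heights of different probes are not comparable.

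In cluster cells 7 of 7 globin probes were lower in GFP+ cells, where 19.8% of all tested probes were lower and 31.4% differed in either direction. In endothelial cells 7 of 7 were lower, where 33.7% of all tested probes were lower and 51.5% differed in either direction. The median log2 difference of the 7 probes was -3.37 in cluster cells, beside -0.07 over all tested probes, and -2.16 in endothelial cells, beside -0.13 over all tested probes. That shift of all probes in endothelial cells was -0.04 with quantile normalization, which also changed the calls over all probes to 4919 higher and 5608 lower, in place of 4345 higher and 8198 lower. The globin differences in endothelial cells, from -2.52 to -1.24, are all far below either shift. With normexp background correction in place of the processed signal, 6 of 7 globin probes were called in cluster cells, 2 of 7 in endothelial cells and no member in the 3 comparisons that follow. On GFP- endothelial replicate 2 this correction raised the 1st percentile of the signal to 685 units, against 57 to 75 on the other arrays. Without 2 spots whose background was above their signal, a choice made after seeing the data, the 1st percentile there was 63 and the globin calls were 7 of 7 in both classes. SDs between the 2 arrays of a group were between 0.00283 and 0.11 for the 7 probes.

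Other globin probes that were well above background on all 8 arrays were also lower in GFP+ cells of both classes. The probe named Hba-a2, which can read the RNA of both adult alpha genes, had levels of 6.08 and 6.12 in GFP+ cluster cells, against 8.53 and 8.59 in GFP- cluster cells (difference -2.46 ± 0.05, adjusted p = 1.41e-05, limma). In GFP+ endothelial cells it had 6.08 and 6.13, against 8.27 and 8.19 in GFP- endothelial cells (difference -2.12 ± 0.05, adjusted p = 3.44e-05, limma). A probe at chr7:110976379-110976438 of mm9 carries no gene symbol and is described in the files as hemoglobin subunit beta-1, and it was picked after the file labels were seen. Its differences were -3.10 ± 0.06 in cluster cells (adjusted p = 9.69e-06, limma) and -1.70 ± 0.06 in endothelial cells (adjusted p = 7.45e-05, limma). Among the minor members of the family was Hbb-bh2 of the beta-type locus. Its probe 1 was well above background on both GFP- cluster arrays, 1 GFP- endothelial array and no GFP+ array. Its bound was at least 1.32-fold lower in GFP+ cluster cells, which did not pass (adjusted p = 0.107, limma), and in GFP+ endothelial cells it was at least 1.34-fold lower (adjusted p = 0.00619, limma).

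Hbq1, the theta-type gene of the alpha locus, was measured on those same 3 arrays and was at least 1.17-fold lower in GFP+ cluster cells, which did not pass (adjusted p = 0.058, limma), and in GFP+ endothelial cells it was at least 1.7-fold lower (adjusted p = 0.00664, limma). These bounds set the bright group's mean against the lowest signal called well above background on the dim arrays. An adjusted p-value printed with a bound belongs to the measured difference, which uses signals below background, and not to the bound. Hbq1 and probe 1 of Hbb-bh2 entered the test only through GFP- cluster cells, where they were highest. Another probe, described as a predicted beta-like globin, was also picked after the file labels were seen. It was not well above background in GFP+ cells, and it entered the test only through the GFP- groups, where it was highest. It did not pass in cluster cells (adjusted p = 0.0773, limma), while in endothelial cells it was at least 1.32-fold lower (adjusted p = 0.00684, limma). Cytoglobin (Cygb), which is made in fibroblast-like cells and not in red cells, was also lower in GFP+ cells, by a log2 difference of -0.59 ± 0.08 in cluster cells (adjusted p = 0.00383, limma) and -0.89 ± 0.08 in endothelial cells (adjusted p = 0.000762, limma). The muscle globin Mb, the nerve globin Ngb and probe 2 of Hbb-bh2 were not well above background on any array and were not tested.

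Within GFP+ cells, where 23.3% of all tested probes were lower in cluster than in endothelial cells, 27.2% were higher and 50.5% differed in either direction, 3 of 7 globin probes were lower in cluster cells. These were Hbb-b2 (-0.73 ± 0.05, adjusted p = 0.000273), Hba-a1 (-0.48 ± 0.05, adjusted p = 0.00126) and Hba-x (-0.31 ± 0.05, adjusted p = 0.00552), all by limma. For the other 4 probes the log2 difference between GFP+ cluster and GFP+ endothelial cells was -0.12 (Hbb-y probe 1), -0.06 (Hbb-bh1), -0.02 (Hbb-b1) and 0.06 (Hbb-y probe 2), with adjusted p-values of 0.171, 0.358, 0.665 and 0.526 from limma. The sign for Hbb-b1 changed with the normalization, and with quantile normalization Hbb-y probe 1 passed (-0.22, adjusted p = 0.0352, limma). A total of 3 of 7 called is near the 50.5% of all tested probes called in either direction, and all 3 were lower.

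Within GFP- cells, 6 of 7 globin probes were higher in cluster than in endothelial cells, where 11.9% of all tested probes were higher and 23.8% differed in either direction. The log2 differences were 1.03 ± 0.05 for Hba-x (adjusted p = 0.000399), 0.94 ± 0.05 for Hba-a1 (adjusted p = 0.000555), 0.82 ± 0.04 for Hbb-b1 (adjusted p = 0.000415) and 0.75 ± 0.05 for Hbb-b2 (adjusted p = 0.000931), by limma. They were smaller for Hbb-y probe 1 (0.46 ± 0.07, adjusted p = 0.00893) and Hbb-bh1 (0.36 ± 0.05, adjusted p = 0.00879), by limma. Both calls rest on all the arrays: without GFP- cluster replicate 1 the Hbb-y probe 1 difference was 0.40 (adjusted p = 0.0511), without GFP- cluster replicate 2 that of Hbb-bh1 was 0.31 (adjusted p = 0.0523), and quantile normalization gave 0.22 for Hbb-y probe 1 (adjusted p = 0.067). Over the alternatives other than normexp with all spots, the highest adjusted p-value of Hbb-bh1 was 0.055 (limma). Hbb-y probe 2 differed by 0.08 ± 0.07 and did not pass (adjusted p = 0.495, limma).

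Put in order, the mean level of 6 of the 7 probes was lowest in GFP+ cluster cells, next in GFP+ endothelial cells, then in GFP- endothelial cells, and highest in GFP- cluster cells. For Hbb-y probe 2 the 2 GFP+ groups stood in the opposite order. The step between GFP- endothelial and GFP+ cells passed the test for all 7 probes. The 2 GFP+ groups were not told apart by Hbb-b1, Hbb-bh1 or either Hbb-y probe, nor the 2 GFP- groups by Hbb-y probe 2. The 2 contrasts that complete the order gave 7 of 7 probes lower in GFP+ cluster than in GFP- endothelial cells (30.5% of all tested probes were lower and 50.3% differed in either direction), and 7 of 7 higher in GFP- cluster than in GFP+ endothelial cells (32% of all tested probes were higher and 47.1% differed in either direction).

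The GFP difference itself was larger in cluster than in endothelial cells for 6 of 7 globin probes, tested as an interaction term, where 14.7% of all tested probes had a negative term and 30.9% a term in either direction. The largest terms among the members were -1.48 ± 0.07 for Hbb-b2 (adjusted p = 0.00121), -1.42 ± 0.08 for Hba-a1 (adjusted p = 0.00137) and -1.34 ± 0.08 for Hba-x (adjusted p = 0.00137), by limma. Hbb-b1 followed with -0.85 ± 0.06 (adjusted p = 0.0018), then Hbb-y probe 1 with -0.59 ± 0.09 (adjusted p = 0.00951) and Hbb-bh1 with -0.42 ± 0.07 (adjusted p = 0.0115), by limma. The Hbb-bh1 term was -0.42 (adjusted p = 0.0536, limma) when dim probes were kept in the adjustment. Over the alternatives other than normexp with all spots, its highest adjusted p-value was 0.0687 (limma). For Hbb-y probe 2 the term was -0.02 ± 0.10 (adjusted p = 0.908, limma).

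**Figure D2:**
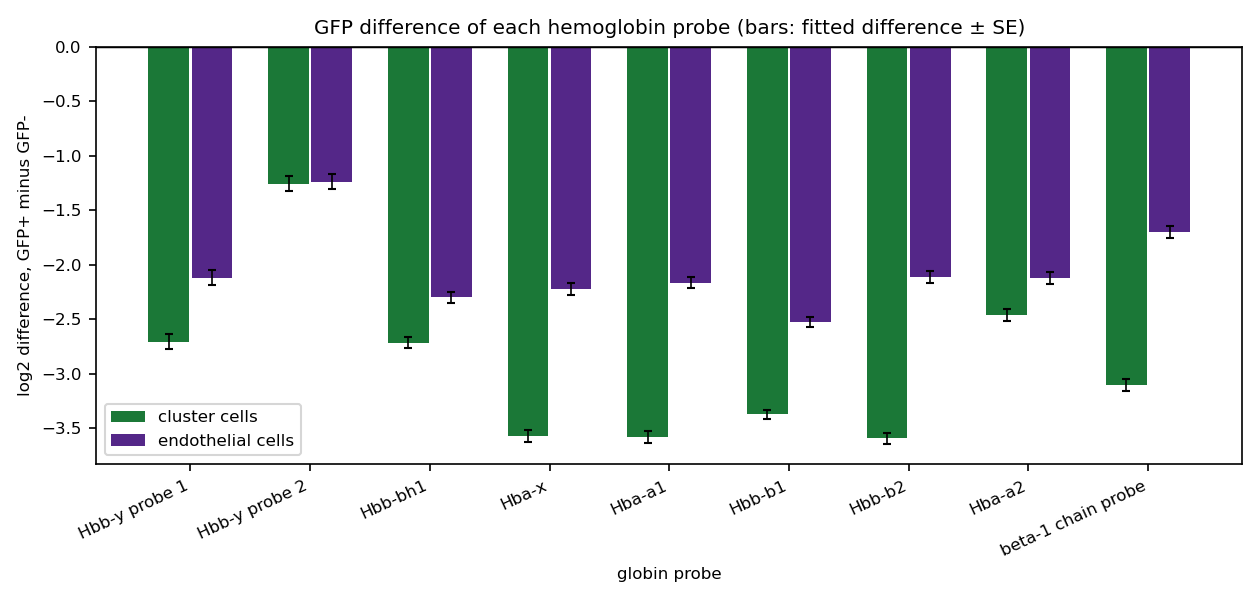
Log2 difference between GFP+ and GFP- cells (vertical axis) for the 7 member probes and the Hba-a2 and beta-1 chain probes (horizontal axis), in cluster cells and in endothelial cells, with bars at the fitted difference and whiskers of 1 SE. All bars point down, the cluster bars reach -3.59 (Hbb-b2) and the endothelial ones -2.52 (Hbb-b1), and for Hbb-y probe 2 the cluster and endothelial bars, -1.25 and -1.24, differ by less than 1 SE.

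Embryonic and adult-type genes did not move as 2 blocks. Within each slide, the mean difference of the 3 adult-type probes between GFP+ and GFP- cluster cells was -3.52 on slide 1 and -3.51 on slide 2, beside -2.55 and -2.57 for the 4 embryonic probes, so that adult-type minus embryonic was -0.98 and -0.93. In endothelial cells it was -0.26 and -0.34. Hba-x, an embryonic gene, had a difference next to that of adult Hba-a1 in cluster cells (-3.57 beside -3.58), while the embryonic beta-type genes Hbb-bh1 and Hbb-y had the smaller ones. With Hbb-y probe 2 left out of the embryonic mean, a choice made after seeing the data, the gap was -0.52 in cluster cells and -0.05 in endothelial cells. The adult-type mean holds Hbb-b1 and Hbb-b2 as separate probes, though they may read 1 RNA, and it leaves out the Hba-a2 probe. The Hba-a2 differences were -2.46 in cluster cells and -2.12 in endothelial cells. No test was made of the gap between adult-type and embryonic probes.

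In cluster cells the smallest differences were also those of the 4 brightest probes (both Hbb-y probes, Hba-a2 and Hbb-bh1), and the scale was looked at for compression. Signals were scanned with a saturation value of 779692 or 779834 units, and no non-control spot was saturated. Hbb-y probe 1 reached 53.9% and 52.6% of that value on the GFP- cluster arrays, and was at 11.1% and 9.7% on the GFP+ cluster arrays. Hbb-y probe 2 was at 23.9% and 18% of saturation on the GFP+ cluster arrays, against 42% and 40.3% on the GFP- cluster arrays. Hbb-bh1 was at 10.3% and 7.17% on the GFP+ cluster arrays, against 46.1% and 44.6% on the GFP- cluster arrays. Hbb-b2, the dimmest member, never passed 0.863% of saturation.

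Probes that can or may read the same RNA differed in the size of the step. Between GFP+ and GFP- cluster cells, the step of Hbb-y probe 2 was smaller than that of probe 1 by 1.57 on slide 1 and 1.33 on slide 2, on the log2 scale. In endothelial cells it was smaller by 0.86 and 0.90. The Hba-a2 probe had a smaller step than the Hba-a1 probe in cluster cells, by 1.17 and 1.08, and the gap was -0.01 and 0.10 in endothelial cells. The probes named Hbb-b1 and Hbb-b2, which may read 1 RNA, also differed. The difference of Hbb-b2 minus that of Hbb-b1 was -0.22 on both slides in cluster cells and 0.43 and 0.39 in endothelial cells, so Hbb-b2 had the wider step in cluster cells and the narrower one in endothelial cells. For the interaction term the gap was -0.65 and -0.61. The interaction term of Hba-a2 was -0.34 ± 0.07 (adjusted p = 0.0218, limma), beside -1.42 for Hba-a1. Each of these pairs therefore gives 2 sizes for what may be 1 RNA or a near-identical pair of RNAs, and no size of a globin difference is settled by 1 probe.

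Over the 9 probes of embryonic and adult-type globins, the highest level on any array and the log2 difference had a Pearson r of 0.408 and a Spearman rho of 0.65 in cluster cells, and of -0.138 and -0.1 in endothelial cells. For the interaction term the values were 0.649 and 0.7. These 9 points share arrays and partly share genes, and the values are descriptions. Among all probes well above background on all arrays, the SD of the cluster difference was 0.421 for the 10139 probes whose highest level was below 0, and 0.268 for the 816 probes above 6. The lowest difference in cluster cells was -3.58 among those brightest probes and -4.16 among the 3216 probes between 2 and 4. In endothelial cells the median difference of the brightest probes was -0.37, against -0.07 for the dimmest.

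For genes with several probes and a mean difference of at least 1, the brighter probe had the smaller step in 14 of 24 genes below 0, in 10 of 26 from 0 to 2, in 9 of 15 from 2 to 4 and in 2 of 3 from 4 to 6. Above 6 the only such gene was Hbb-y, whose probe 1, with the higher top level, had the larger step. The part of brightness in the size of the globin differences was not tested.

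**Figure D3:**
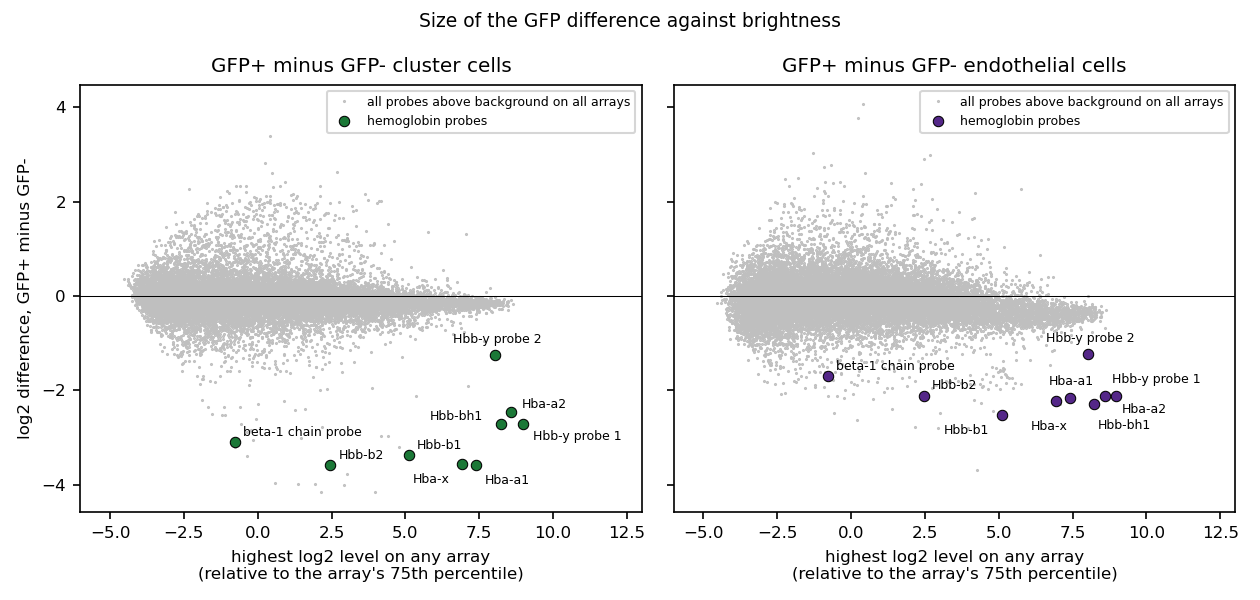
Log2 difference between GFP+ and GFP- cells (vertical axis) against the highest log2 level of the probe on any array (horizontal axis), for cluster cells and for endothelial cells, with all probes above background on all arrays in grey and the 9 hemoglobin probes in colour. In cluster cells Hbb-b2, Hba-x and Hba-a1 lie near -3.6 and the 4 brightest probes between -2.71 and -1.25, while in endothelial cells 7 of the 9 lie between -2.52 and -2.11.

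Genes that act with the globins were counted from lists, and each gene was read by its brightest probe. For all lists, the shares over all tested probes are 19.8% lower and 11.7% higher in GFP+ cluster cells, and 33.7% lower and 17.8% higher in GFP+ endothelial cells. Of 25 genes of heme synthesis and iron supply, 21 were lower in GFP+ cluster cells and the other 4 did not pass (median -0.67). Alas2, the first enzyme of heme synthesis in red cells, had levels of -1.22 and -1.10 in GFP+ cluster cells, against 2.78 and 2.93 in GFP- cluster cells. It was lower by a log2 difference of -4.01 ± 0.08 (adjusted p = 9.69e-06, limma), and next came the mitochondrial iron carrier Slc25a37 (-1.96), the enzyme Cpox (-1.51) and the last enzyme Fech (-1.43). In endothelial cells 16 of the 25 were lower and 2 higher (median -0.30), with Alas2 at -2.80 ± 0.08 (adjusted p = 4.52e-05, limma). The higher ones, named after their values were seen, were Hmox1, which breaks heme down (0.61), and Hebp1, a heme binding protein (0.20).

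Red cell membrane genes had the widest median of the 5 lists in both classes, short of that of the globin probes. Of 19 tested, 15 were lower and 1 was higher in GFP+ cluster cells (19.8% and 11.7% of all tested probes), with a median of -2.71, or -2.11 when the 6 genes that were not above background in GFP+ cells stand at their bounds. Slc4a1, the anion exchanger band 3, had levels of -0.19 and -0.18 in GFP+ cluster cells, against 3.97 and 3.96 in GFP- cluster cells (difference -4.15 ± 0.06, adjusted p = 5.95e-06, limma). The Rh gene Rhd had a difference of -4.16 ± 0.06 (adjusted p = 5.95e-06, limma). Ank1, which ties the membrane to its skeleton, was at least 10.3-fold lower and Rhag at least 8.94-fold lower. The one higher gene was the water channel Aqp1, which endothelium also makes, with a difference of 1.37 ± 0.10 (adjusted p = 0.000452, limma). For Ermap, named after its values were seen, the brightest probe by mean level gave -0.38 and another probe -3.96. In endothelial cells 14 of 19 were lower and 2, Aqp1 and Xk, were higher, with a median of -1.61, or -1.46 at the bounds, and with Slc4a1 at -2.80 ± 0.06 (adjusted p = 3.44e-05, limma).

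Among the hemoglobin partners, 6 of 9 were lower in GFP+ cluster cells and 4 of 9 in GFP+ endothelial cells, and the others did not pass. The 4 of 9 in endothelial cells are near the 33.7% of all tested probes that were lower there. Ahsp, the chaperone of free alpha globin, had levels of -0.81 and -0.73 in GFP+ cluster cells, against 2.97 and 3.02 in GFP- cluster cells, and the difference was -3.77 ± 0.07 (adjusted p = 9.69e-06, limma). In endothelial cells the Ahsp difference was -2.48 ± 0.07 (adjusted p = 4.52e-05, limma). In cluster cells the next largest differences of this list were -0.69 for Bpgm, whose product lowers the oxygen affinity of hemoglobin, and -0.57 for the peroxidase Prdx2 (adjusted p = 0.00122 and 0.00285, limma). Of 8 genes of erythropoietin receptor signalling, 3 were lower and 1 higher in each class, which in endothelial cells is close to the 33.7% and 17.8% of all tested probes, and the receptor Epor had differences of -1.72 ± 0.04 in cluster cells and -0.40 ± 0.04 in endothelial cells (adjusted p = 1.93e-05 and 0.00117, limma).

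Regulators of globin genes went in both directions. Of 34 tested, 9 were higher and 9 lower in GFP+ cluster cells (median -0.04), and 11 were higher and 10 lower in GFP+ endothelial cells (median -0.01, or 0.02 with 2 genes at their bounds). The shares of all tested probes were 11.7% (higher) and 19.8% (lower) in the cluster comparison and 17.8% and 33.7% in the endothelial one. The 10 lower regulators in endothelial cells are near that 33.7%. Klf1, the factor that binds the CACCC box of the adult beta promoter, was at -3.30 and -3.27 in GFP+ cluster cells, against -0.44 and -0.37 in GFP- cluster cells. Its difference was -2.88 ± 0.14 in cluster cells (adjusted p = 9.91e-05, limma) and -1.35 ± 0.14 in endothelial cells (adjusted p = 0.00102, limma). Gata1, the main GATA factor of red cells, had differences of -1.63 ± 0.05 and -1.53 ± 0.05 (adjusted p = 4.12e-05 and 7.99e-05, limma).

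Other regulators were higher in GFP+ cells. Myb, a factor of immature blood cells, had levels of 3.19 and 3.12 in GFP+ cluster cells, against 1.30 and 1.21 in GFP- cluster cells. The Myb difference was 1.90 ± 0.06 in cluster cells and 0.89 ± 0.06 in endothelial cells (adjusted p = 4e-05 and 0.000412, limma). Bcl11a, a repressor of embryonic beta-type globin genes in definitive red cells, had levels of 2.09 and 2.07 in GFP+ cluster cells, against 0.75 and 0.72 in GFP- cluster cells (difference 1.34 ± 0.05, adjusted p = 5.39e-05, limma). In endothelial cells its difference was 0.42 ± 0.05 (adjusted p = 0.00171, limma). Nfe2, a factor of red cells and megakaryocytes, was higher by 1.45 ± 0.12 in GFP+ cluster cells (adjusted p = 0.000607, limma) and had a difference of 0.09 in endothelial cells (adjusted p = 0.549, limma). Cbfa2t3, a corepressor partner of erythroid factors, had differences of 0.96 ± 0.07 in cluster cells and 1.13 ± 0.07 in endothelial cells (adjusted p = 0.000366 and 0.00028, limma). Gfi1b, a repressor needed for red cell formation, went in opposite directions, with 0.70 ± 0.07 in cluster cells and -1.01 ± 0.07 in endothelial cells, and the interaction term was 1.72 ± 0.10 (adjusted p = 0.00142, limma).

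Counting terms that passed, the interaction was negative for 17 of 25 heme genes and 12 of 19 membrane genes, as for 6 of 7 globin probes. It was positive for 2 membrane genes. Over all tested probes it was negative for 14.7% and positive for 16.2%. Of 9 hemoglobin partners, 4 were negative and 1 positive. Of 8 erythropoietin signalling genes, 2 were negative and 1 positive, and of 34 regulators, 7 were negative and 8 positive. Named examples with terms of the size seen in Hba-a1 and Hba-x were Slc4a1 (-1.34 ± 0.08, adjusted p = 0.00142), Epor (-1.32 ± 0.06, adjusted p = 0.00116), Ahsp (-1.28 ± 0.10, adjusted p = 0.00186) and Alas2 (-1.21 ± 0.11, adjusted p = 0.00244), by limma. The median terms of their lists were -1.23 (membrane), -0.16 (erythropoietin signalling), -0.18 (hemoglobin partners) and -0.46 (heme). The probes of these 4 genes had levels under 4 on all arrays, and the part of brightness in their terms was not tested.

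**Figure D4:**
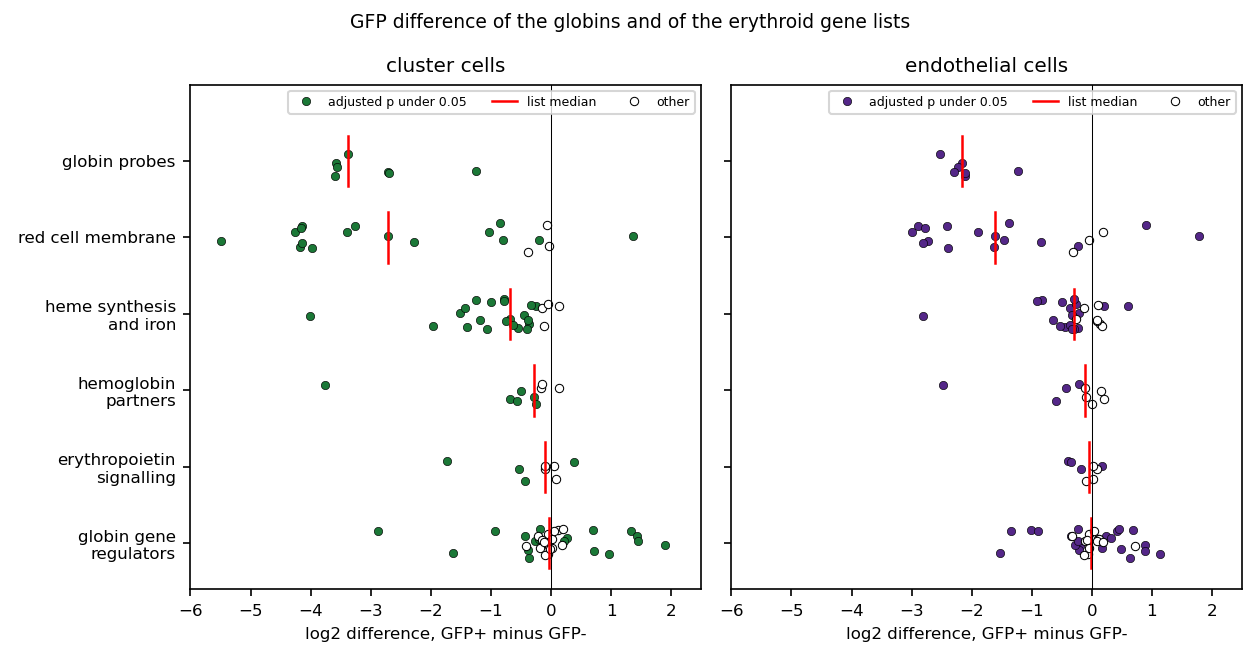
Log2 difference between GFP+ and GFP- cells (horizontal axis) of each globin probe and of each gene of 5 lists (vertical axis), in cluster cells and in endothelial cells, with filled points for adjusted p under 0.05 and a red line at each list's median. The 7 globin probes have medians of -3.37 (cluster) and -2.16 (endothelial), the membrane genes -2.71 and -1.61, the heme genes -0.67 and -0.30, and the regulators -0.04 and -0.01.

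Markers of several cell types moved with the groups. The summed level of 11 erythroid genes other than globins, each as a ratio to the array's 75th percentile, was 3.83 to 4.03 in GFP+ cluster cells, against 42.7 to 44.0 in GFP- cluster cells. It was 3.31 on both GFP+ endothelial arrays, against 14.6 to 14.8 in GFP- endothelial cells. Of these 11 genes, 8 were above background on both GFP+ cluster arrays, 11 and 8 on the GFP+ endothelial arrays, and all 11 on every GFP- array. The sum of 10 macrophage genes was 22.4 to 22.6 in GFP+ cluster cells, against 8.72 to 8.97 in GFP- cluster cells, and 9.15 to 9.47 in GFP+ endothelial cells, against 4.26 to 4.35 in GFP- endothelial cells, with 6 to 9 of the 10 above background and Vsig4 on no array. The sum of 5 mesenchymal genes was 6.80 to 6.93 in GFP+ cluster cells, against 13.9 to 14.0 in GFP- cluster cells, and 12.8 to 13.5 in GFP+ endothelial cells, against 17.3 to 18.2 in GFP- endothelial cells. The sum of 6 megakaryocyte genes was 12.97 to 13.07 in GFP+ cluster cells, against 6.38 to 6.44 in GFP- cluster cells, and 9.80 to 10.52 in GFP+ endothelial cells, against 19.0 to 19.3 in GFP- endothelial cells. The endothelial difference of that sum lies mostly in Pf4 (log2 difference -1.09), and by gene 1 was higher and 2 were lower there, with a median of -0.08. The sum of 4 blood cell genes was 11.7 to 11.9 in GFP+ cluster cells, against 4.96 to 5.11 in GFP- cluster cells, and 2.93 to 3.05 in GFP+ endothelial cells, against 2.70 to 2.73 in GFP- endothelial cells. That sum is mostly Kit, while Spn (1.92), Runx1 (0.88) and Ptprc (0.88) were higher in GFP+ endothelial cells, with a list median of 0.88. The 6 endothelial genes summed to 70.9 to 73.3 in GFP+ cluster cells, against 89.5 to 90.7 in GFP- cluster cells, and to 96.5 to 97.5 in GFP+ endothelial cells, against 101.3 to 106.1 in GFP- endothelial cells. By gene, 3 were higher in GFP+ endothelial cells (Tek, Pecam1 and Emcn, with log2 differences of 0.93, 0.38 and 0.35) and 2 were lower (Kdr and Cdh5, with -0.34 and -0.26), with a median of 0.16. The part of other cell types in the globin differences was not tested. In such bulk samples fewer cells of a type and less RNA per cell cannot be told apart.

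The genes whose profile over the 8 arrays lay nearest to the globins were found among 12179 named genes above background on all arrays, by the Euclidean distance of profiles centred on their means. For the embryonic globins they were Cited4 (distance 0.80, Pearson r 0.98), Paqr6 (0.85, 0.97), Tent5c (0.99, 0.98), Slc6a20a (0.996, 0.98) and Mrap (1.11, 0.96). For the adult-type globins they were Cited4 (0.99, 0.98), Paqr6 (1.1, 0.97), Alas2 (1.11, 0.99), Mt2 (1.15, 0.96) and Rhd (1.24, 0.99). Cited4 and Paqr6 led both lists. The arrays of a profile are pairs from 4 groups, so r mostly restates the group means.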

How the data were processed

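RNA of 4 sorted groups was hybridised to 8 Agilent 1-colour arrays, 2 per group, after 50 ng of RNA had been amplified per the labels' protocols. The deposited scanner files hold spot intensity values made with Agilent Feature Extraction 10.10.1.1, per the file headers, with background subtracted in the processed signal and coordinates on mm9. A table of normalized intensity values on a linear scale that the authors deposited for these arrays was used, after log2, as an alternative, and quantile normalization of the processed signal gave the same 35 globin values to within 0.001.

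The log2 of the processed signal minus the array's 75th percentile was fitted with limma 3.58.1 (lmFit and eBayes, R 4.3.3, with the package data.table, version 1.17.8) over all 8 arrays, with 1 mean per group and 4 residual degrees of freedom. Spots flagged as outliers were left out (10 probes), and the test took the 24359 probes that were well above background on both arrays of any group. P-values are two-sided with Benjamini-Hochberg adjustment over all tested probes and a threshold of 0.05. Figures used Python 3.11.15 and matplotlib 3.10.9. The fit was tested on simulated data. Probe accessions gave current gene symbols through RefSeq tables for 26049 probes, a current symbol matched for 3194, and 10176 kept the file's name.

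The members and all lists (heme and iron, red cell membrane, hemoglobin partners, erythropoietin signalling, globin regulators, and markers of erythroid, macrophage, megakaryocyte, endothelial, blood and mesenchymal cells) were chosen with earlier results of these data known. Named were all globin probes, up to 4 members of each list with the largest called difference, a few fixed erythroid genes, the sort genes and the 5 genes nearest in profile. One list member that the rule would name is not reported here. Replicate numbers mark the slide, and deviations of arrays with the same number correlated in all 6 pairs of groups (r from 0.127 to 0.344). Alternatives were normexp, quantile normalization, the authors' table, the filter on dim probes, the fit's groups, the slide block and leaving out each array.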

Additional observations from a re-analysis of the deposited data

Results flagged for a closer look

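The GFP difference was tested for a difference between cluster and endothelial cells, and 8 globin probes passed. Over all tested probes, 30.9% passed in either direction and 14.7% with a negative term. The terms, as cluster minus endothelial on the log2 scale, were -1.48 for Hbb-b2, -1.42 for Hba-a1, -1.41 for the beta-1 chain probe, -1.34 for Hba-x, -0.85 for Hbb-b1, -0.59 for Hbb-y probe 1, -0.42 for Hbb-bh1 and -0.34 for Hba-a2. Each of these 8 is negative, so for them GFP+ cells fell further below GFP- cells in the cluster class than in the endothelial class. The tested globin probes that did not pass were Hbb-y probe 2 (-0.02), Cygb (0.31), the predicted beta-like probe (0.60), Hbb-bh2 probe 1 (0.92) and Hbq1 (1.15). The probes of Hbq1, Hbb-bh2 and the predicted beta-like globin were not well above background in GFP+ cells. Among the 8 that passed, the terms are smallest for the brightest probes, Hba-a2, Hbb-bh1 and Hbb-y probe 1. The part of brightness in them was not tested.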

How the results depend on the processing

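Of the globin log2 differences recomputed under the alternatives, 28 lost the call, 2 gained it, 10 changed sign and 583 were counted as unchanged. The 583 include the values within each slide, which have no p-value and so no side of the threshold. For these, only the reversal of a called difference would have counted as a change. Among them, Hbb-y probe 2 had the opposite sign between the classes in GFP+ cells on slide 2 (-0.04). Its interaction term had the opposite sign on slide 1 (0.06). Both are apart from the 10 sign changes. Fitting the slide as a block, which pairs the replicate numbers, left the globin calls at 7, 7, 3, 6 and 6 of 7 (GFP difference in cluster and endothelial cells, class difference in GFP+ and GFP- cells, and interaction), with 8325, 13837, 13422, 6511 and 8786 calls over all probes, and changed no globin call. Normexp with all spots gave 2 globin calls for the endothelial GFP difference and 0 for the remaining 3 comparisons, with 107, 71, 123, 2 and 0 calls over all probes. Without the 2 outlying spots, added after seeing the data, it gave 3180 calls over all probes for the GFP- class difference and 4676 for the interaction, and 5 globin calls in each. Keeping dim probes gave 4517 (cluster GFP), 1699 (GFP- class) and 3335 (interaction), and fitting only the compared groups gave 3032 (GFP- class). Leaving out 1 array gave 7 to 7, 7 to 7, 3 to 3, 5 to 6 and 6 to 6 globin calls, and 4326 to 6814, 8951 to 12488, 9384 to 11436, 1830 to 5121 and 4447 to 5709 calls over all probes. The sign changes were all in differences that did not pass: Hbb-b1 between the classes in GFP+ cells (0.022 with normexp, with or without the 2 spots, 0.012 with quantile normalization and 0.013 in the authors' table), Hbb-y probe 2 in the same comparison (-0.02 without GFP+ endothelial replicate 1, and -0.02 to 0.136 over all arrays left out), and the Hbb-y probe 2 interaction (0.065 with normexp without the 2 spots, 0.001 without GFP+ cluster replicate 2, 0.015 without GFP- cluster replicate 2, 0.061 without GFP+ endothelial replicate 2 0.032 without GFP- endothelial replicate 1, and -0.095 to 0.061 over all arrays left out). The Hbb-y probe gap was 1.188 in cluster cells with quantile normalization and in the authors' table, and 0.759 in endothelial cells with normexp. Adult-type minus embryonic was -0.902 (normexp) and -1.144 (quantile and authors' table) for the cluster GFP difference, -0.437 (quantile and authors' table) for the endothelial one, and 0.322 (normexp) and 0.443 (quantile and authors' table) for the class difference in GFP- cells. With Hbb-y probe 1 alone it was -0.52, -0.053, -0.247, 0.221 and -0.467 in the order of the 5 comparisons above. The cause of these changes was not tested, beyond the 2 spots. With 2 arrays of split RNA per group, the number of arrays limits the precision, and probes near background have only bounds.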
